A study of Mus musculus with 12 samples.

Results

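The genes that make and place the DNA double-strand breaks (DSBs) of meiosis were examined in mouse spermatocytes for sites of transcription initiation. They were Spo11, Rec114, Mei4, Mei1, Ankrd31, Prdm9 and Zcwpw1, which are 7 of the 21938 protein-coding genes annotated on chromosomes 1 to 19, X and Y. A gene was counted as called in a substage when the edge of a peak lay under 1000 bp from any of its annotated transcription start sites (TSSs), and such a peak is called a promoter peak here. The members were listed by gene name, and the rule uses no measured value. Earlier results of these data were known when the members were chosen.

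The data were length extension chromatin run-on sequencing (leChRO-seq) of spermatocyte fractions from 3 substages of prophase I, leptonema/zygonema, pachynema and diplonema, with 4 libraries for each substage and 12 in all. Every group was wild type and carried no treatment, and by the study's methods the cells came from adult males of the C57Bl/6J or DBA/2J background, with the strain of a given library not given in the sources used here. Substages were separated by STAPUT, in which cells settle by size and density, so each fraction was enriched and not pure. The 4 libraries of a substage were merged before peaks were called, which left 1 peak list per substage, no spread between replicates, no test between substages and no read depth behind a peak.

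Meiotic recombination begins when SPO11, a protein related to a topoisomerase subunit, cuts both DNA strands and stays bound to the ends. SPO11 acts with TOPOVIBL and with a set of accessory proteins on the chromosome axes, among them REC114, MEI4, IHO1, MEI1 and ANKRD31. In mice the places that are cut are set by PRDM9, a zinc finger protein that methylates histone H3 beside its binding sites, and ZCWPW1 reads the marks that PRDM9 leaves. Breaks form mainly in leptonema and zygonema, and are repaired through pachynema while homologous chromosomes are synapsed.

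In leChRO-seq, engaged RNA polymerase II (Pol II) is allowed to extend its transcript with a labelled nucleotide, so the reads mark nascent RNA and not the mRNA pool. The program dREG finds places where these reads have the shape of transcription initiation, and scores each peak, higher where that shape is clearer. There were 71107 peaks in the leptonema/zygonema list, 68352 in the pachynema list and 38603 in the diplonema list. Scores were not scaled between lists. Over all called genes the median of the highest promoter score was 1.048 in the first list (leptonema/zygonema), 1.03 in the second and 0.8345 in the third. A gene was therefore ranked inside each list, by its highest-scoring promoter peak among those of all called protein-coding genes (13203, 13272 and 11328 genes), with 0 as the lowest percentile and 100 as the highest. A difference of 10 percentile points or more between lists was counted as a move.

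The labelled substages were checked against marker genes. For comparison, 60.2%, 60.5% and 51.6% of all protein-coding genes were called in leptonema/zygonema, pachynema and diplonema. Of 6 early prophase I markers, 6 were called in leptonema/zygonema and pachynema and 5 in diplonema, where Stra8, the retinoic acid induced gene of meiotic entry, had no promoter peak. Of 6 markers of pachynema and later, 5 were called in leptonema/zygonema, without Pou5f2, and 6 in each later substage. Their median percentile was 62.2, 66.0 and 90.6 in the 3 lists in order, and that of the early markers was 69.4, 81.8 and 96.7. Medians are over called genes only, so the diplonema median of the early markers leaves out Stra8. Both medians were highest in diplonema, so the median ranks of these markers did not set the early substage apart from the later ones. Among markers of other cells, 4 of 6 spermatogonial genes were called in every list, at median percentiles of 47.6, 50.5 and 19.3, with Zbtb16, Kit, Dmrt1 and Uchl1 called and Gfra1 and Nanos3 not. In a list of 6 genes, 4 called is near the share over all protein-coding genes. The spermatid list had 5 of 6 genes called in each list, all but Tnp2, at medians of 42.1, 42.4 and 66.6. Sertoli cell genes were called for 2, 3 and 3 of 6 (Sox9 and Clu, with Wt1 in pachynema and diplonema), at medians of 11.96, 19.5 and 23.1. Leydig cell genes were called for 0, 2 and 1 of 6, which were Cyp11a1 and Lhcgr in pachynema and Lhcgr in diplonema, at medians of 3.74 and 1.41. None of 4 macrophage genes was called in any list. A peak says that initiation was found, not how many cells held it: fewer cells of a type and less nascent RNA per cell cannot be told apart in these enriched fractions. The part of other cells in the results was not tested.

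The promoters that the peaks below cover are shown to place the peaks on sequence. They come from the RefSeq promoter table (build GRCm38.p6), which matched 6 of the 7 genes, all but Spo11, and each run holds the 180 bases before the RefSeq start and the first 20 bases from it, on the strand of the gene. Capitals mark exact matches to 5 of 9 short motifs that were searched: CACGTG (E-box), CCAAT (NFY, ATTGG on the other strand), GGGCGG (SP/KLF, CCGCCC on the other strand) and, in Prdm9, GCGGGAA (E2F, on the other strand) followed by CNCCTCAG (the STRA8/MEIOSIN motif).
Rec114 promoter, minus strand, chr9:58741540-58741739: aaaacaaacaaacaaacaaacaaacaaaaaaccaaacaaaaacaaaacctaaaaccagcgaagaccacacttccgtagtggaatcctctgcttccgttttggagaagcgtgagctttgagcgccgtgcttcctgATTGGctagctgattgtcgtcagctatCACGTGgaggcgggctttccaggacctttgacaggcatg
Mei4 promoter, plus strand, chr9:81863490-81863689: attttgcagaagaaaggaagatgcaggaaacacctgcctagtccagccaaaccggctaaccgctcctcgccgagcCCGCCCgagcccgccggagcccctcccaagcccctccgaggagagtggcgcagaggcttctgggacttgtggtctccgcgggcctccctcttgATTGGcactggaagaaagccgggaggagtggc
Ankrd31 promoter, plus strand, chr13:96748113-96748312: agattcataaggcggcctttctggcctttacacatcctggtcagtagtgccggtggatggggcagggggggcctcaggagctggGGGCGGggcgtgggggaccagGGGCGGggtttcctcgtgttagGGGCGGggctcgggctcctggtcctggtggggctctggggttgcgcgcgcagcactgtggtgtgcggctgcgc
Prdm9 promoter, minus strand, chr17:15564335-15564534: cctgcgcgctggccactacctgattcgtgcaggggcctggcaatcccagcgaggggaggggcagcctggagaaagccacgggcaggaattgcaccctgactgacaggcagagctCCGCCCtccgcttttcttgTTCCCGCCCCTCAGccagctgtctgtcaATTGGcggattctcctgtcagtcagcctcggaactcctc
Zcwpw1 promoter, plus strand, chr5:137787622-137787821: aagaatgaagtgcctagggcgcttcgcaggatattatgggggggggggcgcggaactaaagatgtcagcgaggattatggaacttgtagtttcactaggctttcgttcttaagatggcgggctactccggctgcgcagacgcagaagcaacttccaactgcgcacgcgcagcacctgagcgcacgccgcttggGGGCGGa

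Promoter peaks were called at 6 of the 7 genes in each substage. Of all protein-coding genes, 60.2% were called in leptonema/zygonema, 60.5% in the pachynema list and 51.6% in that of diplonema. The same 6 genes (Spo11, Rec114, Mei4, Ankrd31, Prdm9 and Zcwpw1) were called every time, and 49.5% of protein-coding genes were called in all 3 lists. Mei1 was called in none, like 35.9% of protein-coding genes. None of the 7 (0) was called in leptonema/zygonema and pachynema but not in diplonema, as 7.51% of protein-coding genes were. By this rule no gene of the set was gained or lost, and for losses in diplonema 0 of 7 is close to the share over all genes. At a dREG score of at least 0.5, Rec114 was lost in diplonema. The positions and ranks of the peaks of the set did differ between lists. The 6 genes held 13, 12 and 10 promoter peaks in the lists in order of substage, with median widths of 470, 475 and 445 bp beside 460, 460 and 470 bp over all peaks. A peak contained an annotated TSS at all 6 called genes in leptonema/zygonema and pachynema and at 5 in diplonema, where Rec114 was the exception. A peak over a TSS was found at 56.5%, 56.8% and 47.9% of protein-coding genes in the same order.

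The catalytic gene, Spo11 (ENSMUSG00000005883.15, chr2:172977700-172993576, plus strand), had nearly the same pair of promoter peaks in every substage. The first covered the protein-coding start at 172979842 and the second lay just downstream of it. The leptonema/zygonema pair lay at chr2:172979541-172980040 with a score of 1.11 and at chr2:172980061-172980440 with a score of 0.843. In pachynema the first was at chr2:172979471-172980030 (score 1.052) and the second at chr2:172980051-172980550 (score 0.896). The diplonema pair, at chr2:172979501-172979910 and chr2:172979931-172980400, scored 0.871 and 0.792. The highest peak of Spo11 stood at percentile 59.0 (rank 5412 of 13203 genes) at the outset, then at 52.8 (rank 6256 of 13272) and in diplonema at 54.1 (rank 5191 of 11328). It was the only called gene of the set that stayed within 10 points in all 3 pairs of lists: the differences were -6.17 points at the first step, 1.32 at the second and -4.85 from the first list to the last. A retained-intron transcript of Spo11 starts at 172977700, and its nearest peak was 1841, 1771 and 1801 bp away in the 3 lists, so the calls rest on the protein-coding starts. Spo11 had no gene-body peak in any list.

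Mei4 (ENSMUSG00000043289.12, chr9:81863670-82206007, plus strand), whose product forms a complex with REC114, was the highest-ranked gene of the set in leptonema/zygonema and pachynema and the second lowest in diplonema. It had 1 promoter peak in each list, over the start at 81863670. The leptonema/zygonema peak, at chr9:81863421-81864020, scored 1.286. That of pachynema, at chr9:81863191-81863840, scored 1.168, and that of diplonema, at chr9:81863481-81863880, scored 0.53. Its percentile was 89.4 (rank 1391), then 71.4 (rank 3785), then 20.3 (rank 9025). The difference from leptonema/zygonema to diplonema was -69.1 points, and 1.20% of the 10918 genes called in both lists had a difference as low or lower. With uncalled genes ranked too, that difference was -34.8 points, and over all peaks it was -46.5 points. The step from pachynema to diplonema was -51.1 points, and 2.15% of 11166 genes had one as low or lower, and with uncalled genes ranked too it was -23.9 points. The earlier step was -18.0 points. By the highest promoter peak, Mei4 was the only gene of the set to lose 10 points or more at each step (by the peak over its own start, Zcwpw1 did so too), as 9.55% of the 10851 genes called in all 3 lists did. Ranked over all peaks of a list, the earlier step was -3.95 points. The sequence at this start holds ATTGG 12 bases before the start and CCGCCC 105 bases before it, and all 3 peaks covered both.

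Rec114 (ENSMUSG00000074269.10, chr9:58652850-58743964, minus strand) encodes the partner of MEI4, and its ranks took another course than those of Mei4. A single leptonema/zygonema peak at chr9:58741451-58741900 covered the start at 58741559 and scored 0.627. In pachynema the peak over the start, at chr9:58741341-58741790, scored 0.959, and a second one at chr9:58741811-58742110 scored 0.484. The only diplonema promoter peak, at chr9:58741991-58742460, began 432 bp upstream of the start and scored 0.285, which is higher than 3.48% of the peaks in that list. The diplonema peak overlapped the second pachynema peak and no leptonema/zygonema peak. Rec114 was the lowest-ranked gene of the set in leptonema/zygonema (percentile 16.5, rank 11015) and in diplonema (percentile 0.861, rank 11228), and stood at percentile 42.6 (rank 7611) in pachynema. It was 26.1 points higher in pachynema than in leptonema/zygonema, a rise matched or passed by 6.51% of 12498 genes, and 41.8 points lower in diplonema than in pachynema (-41.8), where 4.64% of 11166 genes had a difference as low or lower. With uncalled genes ranked too, the rise was 15.5 points and the fall was -16.5 points. Over all peaks they were 26.5 and -77.2 points. The E-box of the printed sequence begins 19 bases before the start and the ATTGG match 46 bases before it, inside the start-site peaks of leptonema/zygonema and pachynema and outside the diplonema peak. A further protein-coding transcript of Rec114, not in the basic set, starts at 58743964, and its nearest peak was 2064, 1854 and 1504 bp away in the 3 lists. No gene-body peak of Rec114 was called.

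Ankrd31 (ENSMUSG00000109561.1, chr13:96748272-96910039, plus strand), an ankyrin repeat protein that binds REC114, had 3, 3 and 2 promoter peaks in the lists in order. The first peak of each list covered the start at 96748272. At chr13:96747951-96748880 in leptonema/zygonema it scored 1.172, at chr13:96747961-96748650 in pachynema 0.992, and at chr13:96748061-96748580 in diplonema 0.754. The second start, at 96748532, lay inside the same peak in all 3 lists. Behind it, leptonema/zygonema had peaks scoring 0.485 (chr13:96748921-96749390) and 0.44 (chr13:96749411-96749780). Pachynema had peaks scoring 0.897 (chr13:96748671-96749040) and 0.526 (chr13:96749061-96749370), and diplonema 1 scoring 0.526 (chr13:96748601-96749020). Ankrd31 stood at percentile 69.9 (rank 3960), 46.1 (rank 7151) and 41.0 (rank 6683). The first step was -23.9 points, and 7.83% of 12498 genes had a difference as low or lower. The second step, of -5.09 points, was under the limit for a move. Ranked over all peaks, these steps were -7.61 and -10.1 points. From first to last the difference was -29.0 points. It was -17.8 points over all peaks and -12.4 with uncalled genes ranked too. Its promoter holds GGGCGG 3 times, at 96, 75 and 53 bases before the RefSeq start, all inside the first peak of each list.

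Mei1 (ENSMUSG00000068117.10, chr15:82069996-82126814, plus strand), a factor required for break formation in mouse meiosis, had no promoter peak in any list. It has 5 annotated starts, at 82069996, 82069997, 82082464, 82082476 and 82083163. The nearest peak to any of them was 2806 bp away in the leptonema/zygonema list, 2004 bp in that of pachynema and 10536 bp in that of diplonema. The first of these lay upstream of the gene, at chr15:82066621-82067190, and its score of 0.417 was higher than 27.2% of the peaks of its list. The second, an exonic peak at chr15:82072001-82072200, scored 0.379. Just past the 3′ end of Mei1, the promoter peak of Ccdc134 scored 1.381 at chr15:82127441-82128260, 1.398 at chr15:82127451-82128170 and 1.0 at chr15:82127451-82128190 in the 3 lists in order. These scores were higher than 99.2%, 99.8% and 89.4% of all peaks. That peak lay 44278 bp or more from any Mei1 start, so it does not bear on calls at those starts. The absence of a call is a statement on these lists. Whether Mei1 was transcribed below what dREG called was not detectable from peaks alone, because the lists hold no read counts.

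Of the genes that place the breaks, Prdm9 (ENSMUSG00000051977.16, chr17:15543079-15564354, minus strand) encodes the histone methyltransferase that chooses hotspots. Its main peak covered the start at 15564340 in every list. It scored 1.112 at chr17:15564211-15564810 in leptonema/zygonema, 1.165 at chr17:15563941-15564810 in pachynema, and 0.732 at chr17:15564171-15564860 in diplonema. Leptonema/zygonema had a further pair of peaks inside the gene, at chr17:15563571-15564190 (score 0.555) and at chr17:15563391-15563550 (score 0.377). The last of these lay 68 bp from a second group of protein-coding starts, at 15563301 and 15563323, and overlapped no peak of another list. The nearest peak to 15563323 was 618 bp away in pachynema and 848 bp in diplonema. Prdm9 stood at percentile 59.3 (rank 5355), 70.9 (rank 3854) and 38.7 (rank 6944). It was 11.5 points higher in pachynema than in leptonema/zygonema, where 22.8% of 12498 genes had a difference as high or higher, and the rise was under the limit for a move when ranked over all peaks (5.62 points) or with uncalled genes ranked too (6.86 points). It was 32.2 points lower in diplonema than in pachynema (-32.2), where 9.57% of 11166 genes had a difference as low or lower, and by the same rankings this fall was -21.8 and -14.0 points. Its printed sequence has a cluster of matches before the RefSeq start at 15564354: CCGCCC at 66 bases, the E2F motif at 47, CCGCCC again at 44, the STRA8/MEIOSIN motif at 41 and ATTGG at 19. The matches at 47, 44 and 41 share bases. All of them lay inside the main peak of each list.

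Zcwpw1 (ENSMUSG00000037108.13, chr5:137787798-137822621, plus strand) encodes the reader of the PRDM9 marks, and it was the only gene of the set with another gene's TSS under 1000 bp from its own promoter peaks. That gene is Mepce (ENSMUSG00000029726.16, chr5:137781906-137787655, minus strand), the capping enzyme of the small nuclear RNA that restrains Pol II pause release. Their closest starts are 143 bp apart and point away from each other. The peak over the Zcwpw1 start at 137787798 scored 1.061 at chr5:137787531-137787960 in leptonema/zygonema, 0.742 at chr5:137787581-137787940 in pachynema, and 0.441 at chr5:137787601-137787990 in diplonema. An upstream peak that contains annotated Mepce starts scored 0.758 at chr5:137786501-137787200, then 0.833 at chr5:137786331-137787210 and 0.833 at chr5:137786321-137787210. The peak over the Zcwpw1 start also held the outermost Mepce start, at 137787655, in every list, so no call here belongs to Zcwpw1 alone. The highest peak under 1000 bp from the Zcwpw1 start was the one over it in leptonema/zygonema and the upstream one in the later lists. A middle peak scored 0.315 in pachynema (chr5:137787231-137787560) and 0.397 in diplonema (chr5:137787231-137787580). In leptonema/zygonema there was a downstream peak at chr5:137788401-137788660 (score 0.397) that no other list overlapped.

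The rank of Zcwpw1 therefore depended on which peak stood for it. By the highest peak it stood at percentile 51.8 (rank 6356), 31.6 (rank 9068) and 49.8 (rank 5674), which gave a difference of 18.2 points from pachynema to diplonema. By the peak over its own start, ranked among the 12385, 12456 and 10519 genes with such a peak, it stood at percentile 52.3, 26.3 and 12.6. This second ranking was chosen after the shared upstream peak was seen. For the other genes the choice made little difference: Mei4 stood at 89.2, 71.1 and 19.97, Spo11 at 59.3, 53.3 and 54.2, Prdm9 at 59.7, 70.5 and 38.4, and Ankrd31 at 70.0, 46.5 and 40.9. Rec114 stood at 16.9 and 43.2 in the first pair of lists and had no such peak in diplonema.

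**Figure D1:**
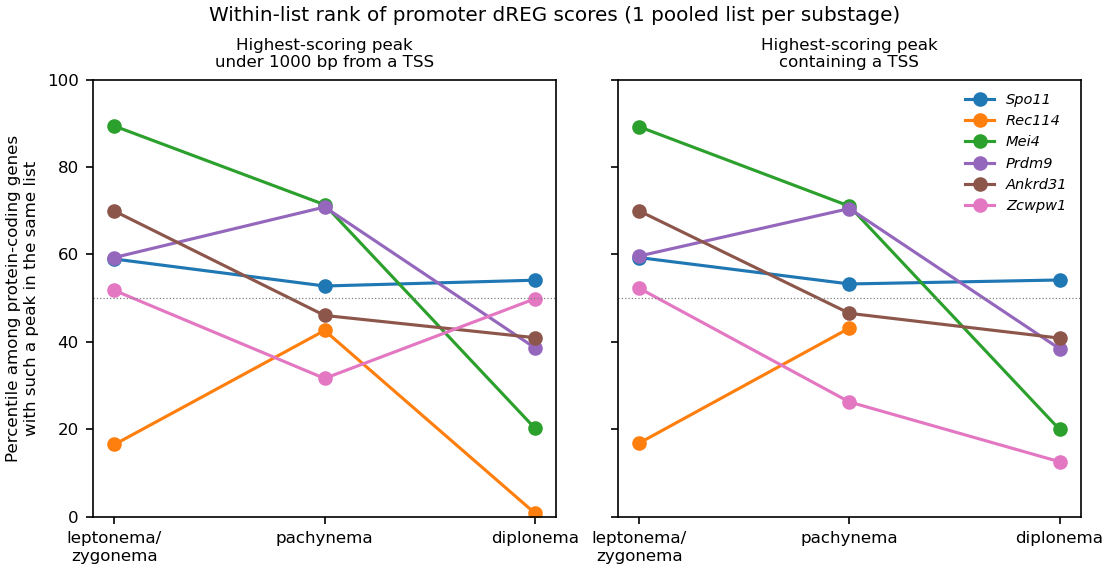
Percentile of each gene's dREG score inside each of the 3 pooled lists, by the highest-scoring peak under 1000 bp from a TSS (left) and by the highest-scoring peak that contains a TSS (right); each point is 1 gene in 1 list, there are no replicates, and Mei1 has no point. Mei4 goes from 89.4 to 20.3 on the left, Spo11 stays between 52.8 and 59.0, and Zcwpw1 ends at 49.8 on the left and at 12.6 on the right.

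Set side by side, the called genes spread over percentiles 16.5 to 89.4 in the first list, 31.6 to 71.4 in the second and 0.861 to 54.1 in the third. Their median percentile was 59.1, 49.4 and 39.8, where all called genes have their median at the 50th by construction. The number above that middle was 5, 3 and 1 of 6. In leptonema/zygonema the order was Mei4, Ankrd31, Prdm9, Spo11, Zcwpw1 and Rec114. In pachynema it was Mei4, Prdm9, Spo11, Ankrd31, Rec114 and Zcwpw1. In diplonema it was Spo11, Zcwpw1, Ankrd31, Prdm9, Mei4 and Rec114. With 1 list per substage no neighbours in these orders can be said to differ beyond replicate error, and Prdm9 and Spo11 in leptonema/zygonema (59.3 and 59.0) and Mei4 and Prdm9 in pachynema (71.4 and 70.9) were closest.

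By the limit of 10 points, 4 of the 6 genes stood lower in diplonema than in leptonema/zygonema (Mei4, Ankrd31, Prdm9 and Rec114), 0 stood higher, and Spo11 and Zcwpw1 stayed within it. Over all genes called in both lists 39.1% stood lower and 26.3% higher. The Rec114 difference, -15.7 points, was -0.960 when uncalled genes were ranked too, and that of Prdm9, -20.6 points, was then -7.18. By peaks over a TSS, Zcwpw1 also stood lower (-39.7 points). From leptonema/zygonema to pachynema, 3 genes stood lower (Mei4, Ankrd31 and Zcwpw1) and 2 higher (Rec114 and Prdm9), beside 24.2% and 25.4% of all genes. From pachynema to diplonema, 3 stood lower (Mei4, Rec114 and Prdm9) and 1 higher (Zcwpw1, through the upstream peak that holds Mepce starts), beside 38.2% and 19.3%. Both steps use the pachynema list, and with 6 genes and no test these counts are a description beside the background shares.

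**Figure D2:**
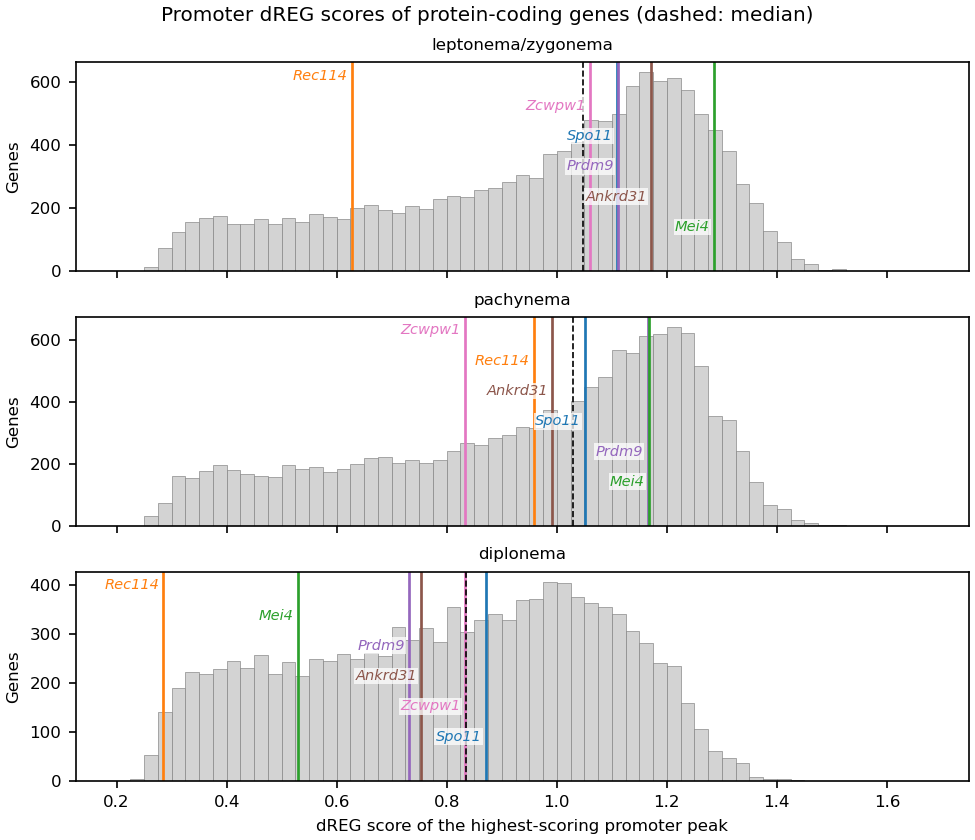
Distribution of the highest promoter dREG score over all called protein-coding genes in each list (grey bars, number of genes per score bin of the horizontal axis), with the 6 called genes as coloured lines and the median of all called genes dashed. In leptonema/zygonema 5 of the 6 lie above the median of 1.048, and in diplonema Rec114 lies near the low end at 0.285.

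Positions were mostly shared between lists. Of the 13 leptonema/zygonema promoter peaks of the set, 10 were overlapped by at least 1 bp in pachynema (76.9%, beside 89.2% of all promoter peaks) and 9 in diplonema (69.2%, beside 70.1%). All 12 pachynema peaks overlapped one of leptonema/zygonema (beside 86.9% of all) and 10 overlapped one of diplonema (83.3%, beside 72.5%). Of the 10 diplonema peaks, 9 were overlapped in leptonema/zygonema (90.0%, beside 90.4%), the exception being the upstream peak of Rec114, and 10 in pachynema (beside 95.7%). The leptonema/zygonema peaks with no overlap in pachynema were the last peaks of Ankrd31, Prdm9 and Zcwpw1 in the direction of transcription, which scored 0.44, 0.377 and 0.397. The Ankrd31 peak was also the one nearest to the distance limit, 879 bp from a start. Just outside the limit, Zcwpw1 had leptonema/zygonema peaks at 1318 bp upstream (dREG score 0.342) and at 1112 bp from an internal start (dREG score 0.416).

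Inside the gene bodies, 1000 bp or more from every start of the gene, 8 leptonema/zygonema peaks were called in 4 genes, 4 pachynema peaks in 4 genes and 0 in diplonema. A gene-body peak was called at 28.6%, 26.9% and 15.8% of protein-coding genes. The 7 genes span 724.017 kb, which gives 1.10, 0.552 and 0 peaks per 100 kb, beside 1.63, 1.45 and 0.666 over all protein-coding genes. Ankrd31 held 4 of those in leptonema/zygonema, and the strongest gene-body peak of the set was one of them, an intronic element at chr13:96767791-96768310 with a score of 0.743, higher than 64.2% of its list, 19.5 kb inside the gene. Beside it lay a peak of 0.284 (chr13:96767481-96767770). A peak 9.76 kb inside Ankrd31 was called in both leptonema/zygonema (chr13:96758031-96758360, score 0.477) and pachynema (chr13:96758031-96758420, score 0.499), and the last lay at chr13:96845291-96845730 (score 0.382).

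Mei4 had an intronic peak called in the same lists, 103 kb from its start, at chr9:81966391-81966860 in leptonema/zygonema (score 0.292) and at chr9:81966501-81966790 in pachynema (score 0.345). A second Mei4 intronic peak was in leptonema/zygonema alone (chr9:82036981-82037310, score 0.403). The others were intronic in Mei1 in leptonema/zygonema (chr15:82077121-82077570, score 0.309), exonic in Mei1 in pachynema as given above, intronic in Prdm9 in pachynema (chr17:15558171-15558490, score 0.321) and exonic in Zcwpw1 in leptonema/zygonema (chr5:137811941-137812570, score 0.416). Apart from the Ankrd31 element of 0.743, all gene-body peaks scored under 0.5, and none lay under 1000 bp from a TSS of another gene.

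The 9 motifs were searched on both strands in the 300-base promoters of the table, from 250 bases before the start to 50 after it, and a match is only a match of letters. The NFY motif was found at 3 of the 6 genes in the table (Rec114, Mei4 and Prdm9), beside 41.1% of 27025 genes, and the SP/KLF motif at 4 (Mei4, Prdm9, Ankrd31 and Zcwpw1), beside 38.2%. The E2F motif was found at 2 (Rec114, 26 bases past the start, and Prdm9), beside 5.29%, the E-box at Rec114 alone, beside 8.09%, and the STRA8/MEIOSIN motif at Prdm9 alone, beside 9.12%. None of the 6 genes had the MYB motif GGCNGTT, which 13.6% of the genes in the table had, or the CRE motif TGACGTCA, which 2.03% had. The RFX motif GTTGCCA (5.02% of the genes in the table) was absent from their windows too, as was the TATA motif, with the letters TATAAA (15.7%). The promoters were not alike in composition. GC content ran from 46.7% at Mei1, whose table entry is for the start at 82082476, to 65.3% at Ankrd31, beside a median of 52.7% over all entries. The observed over expected CpG ratio was 1.06 at the Zcwpw1 entry shown, higher than 96.6% of entries, 0.710 at Rec114, 0.631 at the Prdm9 entry shown, 0.580 at Mei4, 0.568 at Ankrd31 and 0.491 at Mei1, beside a median of 0.384. The other Prdm9 entry, for the start at 15563331, was below that median at 0.353, and the other Zcwpw1 entry was at 0.952.

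For context, 3 lists of related genes were described in the same way. The list of other DSB machinery and control genes had 13 of 14 called in each substage, at median percentiles of 85.3, 81.0 and 86.4. The exception was Ccdc36, which encodes IHO1, a partner of REC114, and which like Mei1 had no promoter peak in any list. One gene of that list, Zcwpw2, is annotated as a transcribed pseudogene. The strand exchange genes had 8, 8 and 7 of 8 called, at medians of 81.6, 82.8 and 90.9, and Psmc3ip, a cofactor of the DMC1 recombinase, was the one not called in diplonema, after percentiles of 45.2 and 1.05. The synaptonemal complex genes had 8 of 8 called in every list, at medians of 70.3, 79.2 and 82.5. The break formation genes stood at 59.1, 49.4 and 39.8, the lowest median of the 4 lists in each substage, and this is a description of small lists that were compared without a test.

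From leptonema/zygonema to diplonema the median difference was -18.2 points over the 6 called break formation genes, -0.690 over 13 machinery genes (3 lower, 5 higher), -6.83 over 7 strand exchange genes (3 lower, 0 higher) and 12.5 over 8 synaptonemal complex genes (2 lower, 5 higher). The highest percentiles of the related lists were held by Trip13 (99.1), Gm960, which encodes TOPOVIBL (98.99), and Brca2 (98.8) in leptonema/zygonema. In pachynema they were held by Trip13 (99.7), Hsf2bp (98.0) and Rad50 (97.5), and in diplonema by Meiob (99.9), Hormad1 (99.6) and Sycp1 (97.5). TRIP13 is the ATPase that strips HORMAD proteins from synapsed axes, and MEIOB binds single-stranded DNA during repair.

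**Figure D3:**
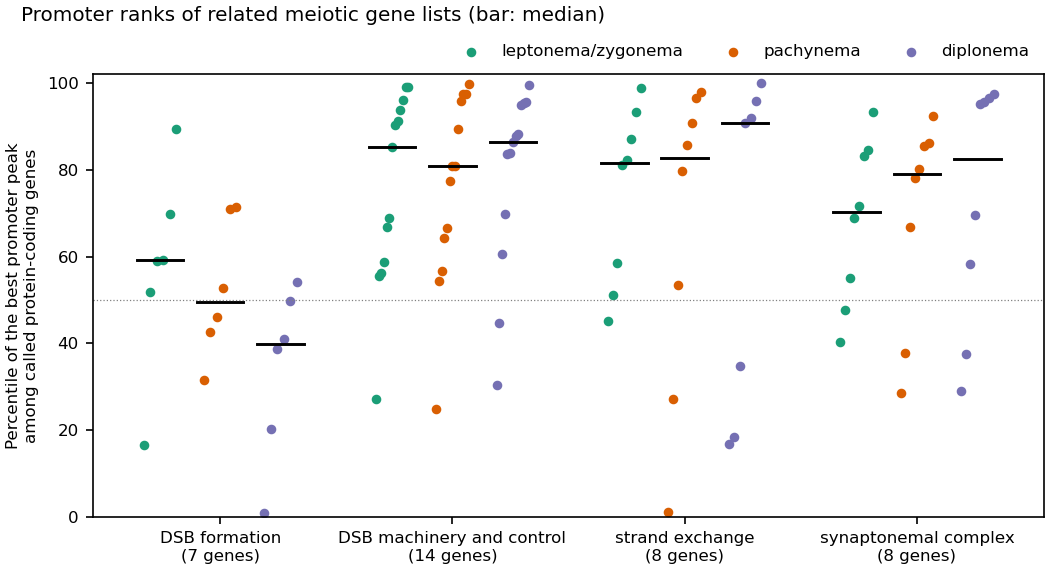
Percentile of the highest-scoring promoter peak of each called gene in the break formation set and in 3 lists of related meiotic genes, with 1 point per gene, 1 colour per substage and a bar at the median. The median of the break formation genes goes from 59.1 to 39.8, and that of the synaptonemal complex genes from 70.3 to 82.5.

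For the called genes other than Ankrd31, the gene of these lists with the closest pattern was found by the summed difference of the 3 percentiles, over 28 genes called in all 3 lists. Mei4 was closest to Hells, a chromatin remodeller that acts with PRDM9, with a summed difference of 29.0 points, and Hells stood at 85.3, 56.6 and 30.4. Prdm9 was closest to Mnd1 (38.9 points), Spo11 to Nbn (33.0 points) and Zcwpw1 to Syce3 (30.1 points). The closest gene to Rec114 was also Syce3, but at 65.1 points, so no gene of these lists stood near its pattern. Likeness over 3 lists describes the ranks only.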

How the data were processed

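leChRO-seq libraries of wild-type spermatocytes (4 per substage, in leptonema/zygonema, pachynema or diplonema) were processed by the authors. Per the study's methods, duplicates were removed by molecular identifier with PRINSEQ lite and dREG was run with default settings. The names of the deposited lists say that the libraries of a substage were merged. The submitters' processing notes name cutadapt, BWA, bedtools and the mm10 build, without versions, and the dREG version is not given in the sources used here. The deposited lists hold, per peak, a position, a dREG score with no fixed range and a p-value, all under 0.05, of which 29.4%, 27.8% and 24.1% are listed at 0. Whether the authors adjusted the deposited p-value is not given, and it served only as a filter. A last column of positions was not used.

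From these, peak edges were measured to the TSSs of GENCODE M21, promoter peaks were ranked inside a list, and lists were set side by side without a test, because libraries were pooled before calling. The lists hold no read counts, so the depth behind a peak or behind the absence of a call was not analysed here. Motifs were exact matches on both strands of the RefSeq promoters, and 165 of the 32851 entries were compared with the genome, of which 0 differed. Promoter calls, gene-body calls and percentiles were first tested on simulated peaks and genes. The motif and overlap steps were not part of that test. The tools were matplotlib 3.10.9, scipy 1.17.1, pandas 2.3.3, numpy 2.4.6 and Python 3.11.15.

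All 7 genes are named. Of the related lists, genes were named where uncalled in at least 1 list, where among the 3 highest percentiles of a list, or where closest in pattern to a member, and Mepce was named as a neighbour. The closest pattern to Ankrd31 is not reported here. Ccdc134, Zcwpw2, Dmc1 and Sycp3 fall outside this rule and were chosen after their values were seen. The members and lists were chosen with earlier results of these data known. The alternatives were other TSS distances and sets, peak centres, stricter scores or p-values, lists of equal size, other ranking pools, other overlap rules and another motif window.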

Additional observations from a re-analysis of the deposited data

How the results depend on the processing

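The calls at 6 of 7 genes held except in diplonema at a dREG score of at least 0.5 and by peaks over a TSS only, where Rec114 was lost and 5 remained. Mei1 stayed uncalled in all of them, a TSS limit of 2000 bp included. The median percentile of the set, in the order of the lists, was 75.4, 69.4 and 68.9 when ranked over all protein-coding genes, 51.4, 38.8 and 37.5 over genes called in all 3 lists, 86.5, 84.2 and 71.4 over all peaks, and 61.6, 52.6 and 33.0 by the nearest peak. With lists of equal size it was 53.4 in leptonema/zygonema and 42.5 in pachynema. In diplonema it was 29.2 at a TSS limit of 500 bp, 30.0 without peaks nearer to another gene and 38.4 by peaks over a TSS only, which was chosen after seeing the data. The fall of the median from leptonema/zygonema to diplonema was present in each of these where both were computed.

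The Zcwpw1 difference from pachynema to diplonema reversed from 18.2 to -14.1 points by the nearest peak, -13.0 at 500 bp, -12.9 without peaks nearer to another gene and -13.7 by peaks over a TSS only: each of these drops the upstream peak that holds Mepce starts. The Mei4 difference from leptonema/zygonema to diplonema stayed between -69.5 and -34.8 points over 9 alternatives, and that of Rec114 ran from -50.7 to -0.960 over 8. Gene-body peaks fell from 8 to 1 in leptonema/zygonema and from 4 to 0 in pachynema at a dREG score of at least 0.5 and with lists of equal size, and to 5 and 2 at a p-value of at most 0.01. Within 200 bp on each side of the start, 1 gene (Prdm9) had the MYB motif in place of 0. Over the alternatives, 66 of 90 summary values (calls, medians, overlaps, motif and gene-body counts) stayed the same, 24 moved and 0 reversed, by the limits set for them. Over all single-gene differences and alternatives, 142 of 160 values stayed on the same side of the 10-point limit, 14 crossed it and 4 reversed a difference of 10 points or more. Differences under the limit could change sign, as that of Ankrd31 from pachynema to diplonema did, which ran from -10.1 to 3.83 points. The cause of the other moves was not tested.

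No paired analysis was possible because the columns carry no replicate: libraries were pooled before calling. For the same reason no replicate was left out. The lists hold no counts, and the part of depth in the shorter diplonema list was not tested.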

Other observations

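The deposited p-value and score did not rank peaks alike. In leptonema/zygonema 6851 peaks with a dREG score under 0.5 had a p-value listed at 0, which is 24.3% of the peaks under that score, and the lowest of them scored 0.281. In pachynema there were 6495 (23.2%) and in diplonema 3875 (22.0%). At the other end, peaks with a p-value above 0 reached scores of 1.213, 1.23 and 1.07. The diplonema peak of Rec114, with a dREG score of 0.285, was one of those listed at 0, as were the gene-body peak of Prdm9 in pachynema (0.321) and the downstream peak of Zcwpw1 in leptonema/zygonema (0.397). Of the promoter peaks of the break formation genes, 6 of 13, 5 of 12 and 2 of 10 had a p-value listed at 0, beside 29.4%, 27.8% and 24.1% of all peaks. All peaks include those away from promoters, and the share over promoter peaks alone is not given here.

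Among the related genes, Dmc1, the meiosis-specific recombinase that loads on the resected breaks, stood at percentile 58.4, 27.1 and 18.3 in the 3 lists, and Sycp3, a component of the chromosome axis, at 47.7, 78.2 and 96.7. These genes were chosen after their values were seen.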
